A study of Homo sapiens with 11 samples.

Results

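Histone lysine methyltransferases (writers), histone lysine demethylases (erasers) and the PHF genes, which carry the PHD finger, were followed across MDA-MB-231 and SKOV3 cells that received miR-365a-3p or a control miRNA. Members were chosen by symbol alone: DOT1L, ASH1L, WHSC1, WHSC1L1, NSD1, and the symbols that begin with MLL, SETD, SETDB, EHMT, SUV, KDM, JMJD or PHF in the forms used for these families. The rule found 61 members among 31325 rows, of which 27 were writers, 17 were erasers and 17 were PHF genes. The array carries many older symbols. In RefSeq (GRCh38.p14), 43 members matched a current symbol, 16 matched 1 gene through an older symbol, and MLL2 and MLL4 each matched a pair of genes (KMT2B and KMT2D), so their identity was not settled here. KDM and JMJD rows were counted as erasers by name, although JMJD4, JMJD6 and JMJD8 are not known mainly for histone demethylation. In all, 5 erasers (JMJD4, JMJD5, JMJD6, JMJD7 and JMJD8) and 4 writers (SETD3, SETD4, SETD5 and SETD6) were classed by name only.

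Total RNA was measured on 11 Illumina HumanHT-12 v4 bead arrays. MDA-MB-231, a basal-like breast cancer line, had 3 arrays with the miR-365a-3p mimic and 3 with the control miRNA; SKOV3, an ovarian cancer line with high ERBB2, had 3 arrays with the mimic and 2 with the control miRNA. The sample labels gave 48 h of treatment and the series' own design text gave 24 h, a difference that was not resolved here. The labels name the ovarian line SKOV3, whereas the paper that reported these arrays names it SKOV3.ip1, which was not resolved either. All groups were transfected cultures, and each cell type was a single established line.

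Writers place methyl groups on histone lysines and erasers remove them. Methylation of H3K4 is found at active promoters and that of H3K36 over transcribed gene bodies, whereas methylation of H3K9 and H3K27 marks silent chromatin. PHD fingers, the zinc-binding folds that name the PHF genes, read the methylation state of the histone H3 tail, and some PHF proteins are themselves erasers. A microRNA pairs through its seed, bases 2 to 8, with sites in messenger RNAs and lowers the amount or translation of those RNAs.

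The mature strand of the transfected microRNA is shown because every comparison rests on it. The seed is in capitals, and the target letters complementary to it read GGGCAUU. The same 22 bases are encoded at chr16:14309340-14309361 (plus strand) as miR-365a-3p and at chr17:31575478-31575499 (plus strand) as miR-365b-3p in GRCh38.p14.
miR-365a-3p: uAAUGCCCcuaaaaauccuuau

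For each class, the promoter window of the member that fell most in both cell lines is shown. Windows are shown because the promoters of the members had features that the symbol rule did not use. These 3 members were picked by their falls, so their shared direction says nothing about their promoters. Windows of members that rose are not shown. Each sequence is RefSeq's (GRCh38.p14), 250 bases before and 50 after the start site that the sequence table uses, 5′ to 3′ on the gene's strand, and capitals mark a match to GGGCGG or CCAAT on either strand. The SETD2 window lies at chr3:47164064-47164363 (minus strand), with a start site 727 bases inside the annotated gene, so it is wholly within the gene and does not cover its outermost start. The windows of KDM5B and PHF13 sit at the outer start of the gene, at chr1:202808372-202808671 (minus strand) and chr1:6613481-6613780 (plus strand).
SETD2: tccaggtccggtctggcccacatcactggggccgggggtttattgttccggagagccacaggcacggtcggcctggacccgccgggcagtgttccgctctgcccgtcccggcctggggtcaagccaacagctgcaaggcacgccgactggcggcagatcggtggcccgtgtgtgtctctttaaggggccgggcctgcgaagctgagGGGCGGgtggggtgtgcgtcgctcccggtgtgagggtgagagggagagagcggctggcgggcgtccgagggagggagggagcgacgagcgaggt
KDM5B: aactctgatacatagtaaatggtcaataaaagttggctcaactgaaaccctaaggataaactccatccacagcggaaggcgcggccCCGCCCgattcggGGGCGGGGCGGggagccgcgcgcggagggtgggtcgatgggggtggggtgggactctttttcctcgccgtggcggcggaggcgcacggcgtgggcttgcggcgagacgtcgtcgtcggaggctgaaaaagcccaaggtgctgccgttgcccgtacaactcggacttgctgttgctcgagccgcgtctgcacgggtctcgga
PHF13: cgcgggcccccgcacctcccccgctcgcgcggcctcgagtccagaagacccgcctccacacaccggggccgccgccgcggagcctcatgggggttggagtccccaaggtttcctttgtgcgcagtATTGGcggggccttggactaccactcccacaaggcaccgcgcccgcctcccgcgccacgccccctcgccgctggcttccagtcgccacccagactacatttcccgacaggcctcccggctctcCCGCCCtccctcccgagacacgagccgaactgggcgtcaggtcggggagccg

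Promoter windows were found for 52 members, of which 39 sat at the outer start of the annotated gene and 12 lay wholly inside it. GGGCGG, searched on both strands, was present in 41 of the 52 (78.8%), against 45.0% of the 35116 windows in the table. CCAAT was present in 34.6% of the members and 34.6% of all promoters, CCGGAAG in 13.5% and 10.3%, GCATGCGC in 5.77% and 3.05%, and TATAAA in 0 members and 11.5% of all promoters. The members' promoters had a median GC content of 68.7% and a median of 30 CpG dinucleotides, against 58.7% and 14 for all promoters. GGGCGG holds a CpG, so its share and the CpG count overlap. Members were given 1 window per gene on the main chromosomes, whereas the 35116 windows were not reduced in that way. The sets compared are to that extent unlike. SETD2 held 1 GGGCGG, KDM5B held 3, and PHF13 held 1 GGGCGG and 1 CCAAT.

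Values are the deposited signals, read as log2, after a further quantile normalization over the 11 arrays. A difference is miR-365a-3p minus control on that log2 scale, and a member was said to have risen or fallen where limma's adjusted p, corrected over all 31325 rows, was under 0.05. Signals near 7.3 are at the floor of these arrays, and a mean above 8 over all arrays was taken as above the floor. By that measure 15 members (24.6%) were above the floor, against 21.9% of all rows; they were 5 writers, 4 erasers and 6 PHF genes. The 46 members below had means from 7.29 to 7.99, where a true change can be compressed, and a lack of a call there does not show that the transcript was steady. The same holds for a group that ends below 8: the differences of SETD2, KDM5B, KDM3B, PHF13 in MDA-MB-231, PHF15, HCFC1 and NCOA6 are as measured, with mimic arrays under that level, and may understate the change.

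**Figure D1:**
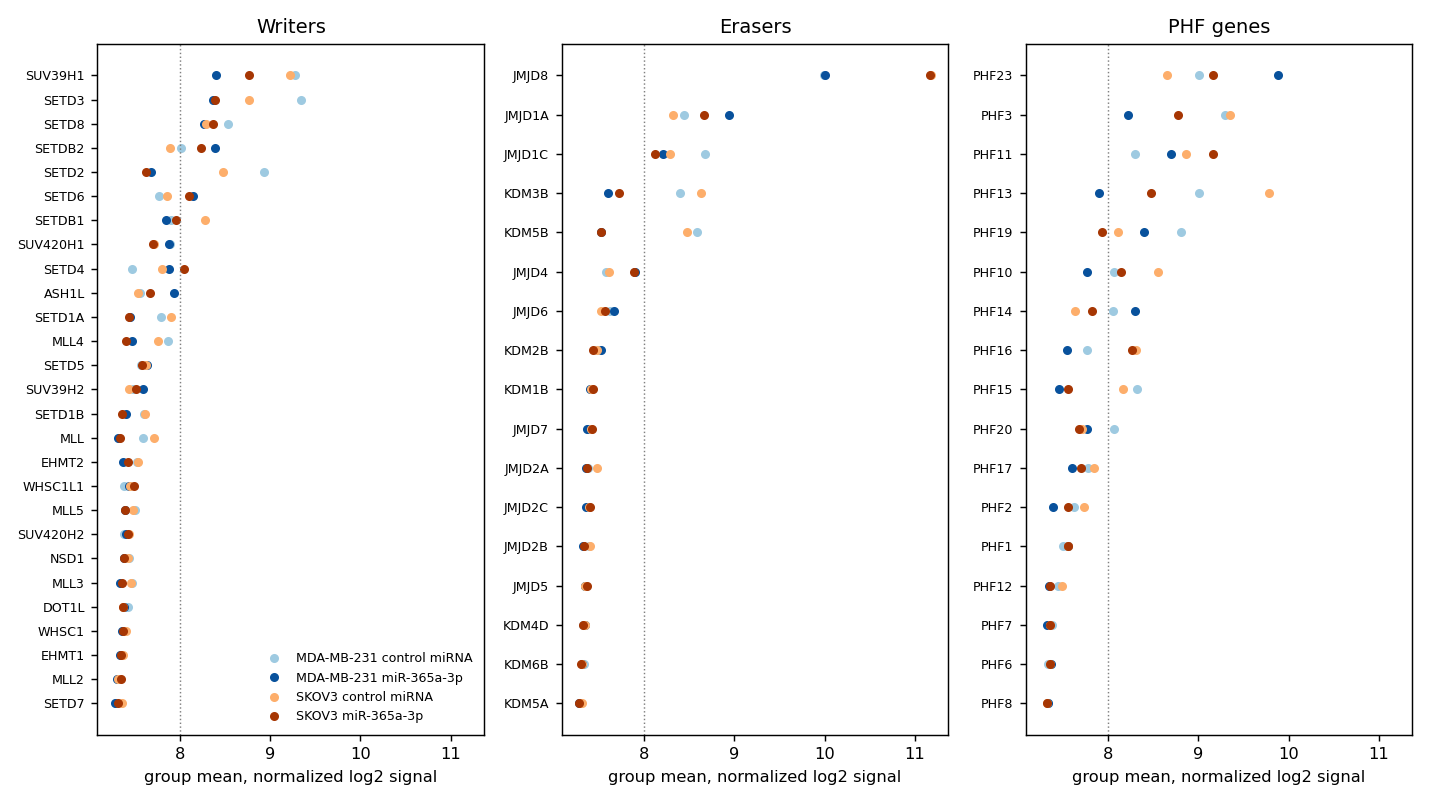
Mean normalized log2 signal of each of the 61 members in the 4 groups, by class, sorted by the mean over all arrays; the dotted line marks the floor of 8. Most members crowd between 7.3 and 8 in all groups, and 15 have a mean to the right of the line.

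The cells carried the markers set for them in part. ERBB2 read 10.9 in SKOV3 controls and 7.61 in MDA-MB-231 controls, and PAX8 read 8.18 and 7.40. Of the markers set for MDA-MB-231, VIM was at 13.8 in its controls and 13.7 in SKOV3 controls, so it did not separate the lines. KRT18, a SKOV3 marker, read 7.90 in SKOV3 controls and 8.01 in MDA-MB-231 controls, and MSN, an MDA-MB-231 marker, read 10.6 and 10.1, neither difference passing the test (adjusted p = 0.729 and 0.161). PTPRC, CD3E, PECAM1 and ALB, markers of blood, vessel and liver cells, stayed at 7.28 to 7.48 in all groups. Several of the lines' own markers moved with the mimic: AXL fell in both (−3.80 and −2.44), as did MSN (−1.62 and −1.12), ERBB2 (−1.57) and PAX8 (−0.70) fell in SKOV3, and KRT8 rose in MDA-MB-231 (0.86). The part of these changes in the results was not tested. The upper quartile of the deposited signal was lower with the mimic, at 7.56 to 7.65 against 7.86 to 7.93 in MDA-MB-231 and 7.67 to 7.80 against 7.98 to 8.04 in SKOV3, and the part of this shift in the results was not tested. In these bulk samples, fewer cells with a transcript and less of it per cell cannot be told apart.

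In MDA-MB-231 cells, more members fell with miR-365a-3p than rose. The mimic lowered 23 of the 61 members (37.7%) and raised 9, whereas 11.7% of all rows fell and 14.4% rose. In SKOV3, 13 members fell (21.3%) and 3 rose, against 7.11% and 7.25% of all rows. In MDA-MB-231, all mimic arrays lay below all control arrays in 28 members (all rows, 17%) and above them in 9 (all rows, 21%). In SKOV3 the mimic arrays lay below in 24 of the 61 members (all rows, 18.2%) and above in 12 (all rows, 23.7%). In both lines the share of members above was under that of all rows. Among the 15 members above the floor, 9 fell and 4 rose in MDA-MB-231 (26.2% and 39% of the 6853 rows above it), and 3 fell and 2 rose in SKOV3 (15.3% and 23.4%). The median difference of the 61 members was −0.03 in each cell line, against 0.01 for all rows in each. Over the 15 above the floor it was −0.41 in MDA-MB-231 and −0.17 in SKOV3, against 0.17 and 0.15 for all rows above the floor.

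The number of rises depended on how the arrays were scaled. On the deposited values without further normalization, 2 members rose and 31 fell in MDA-MB-231, and 0 rose and 24 fell in SKOV3; with each array centred on its median, the counts were 2 and 26, and 0 and 23. Quantile normalization moved the median of the rows above the floor from −0.05 to 0.17 in MDA-MB-231 and from −0.00 to 0.15 in SKOV3. Cyclic loess gave 7 rises and 22 falls in MDA-MB-231 and 2 rises and 16 falls in SKOV3. Falls outnumbered rises in both cell lines under these 4 scalings.

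**Figure D2:**
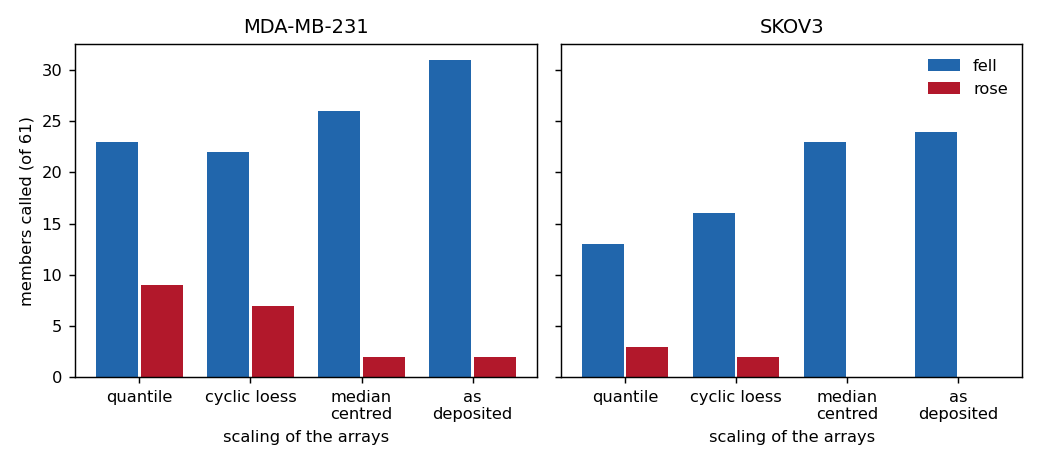
Number of the 61 members that fell or rose with miR-365a-3p (adjusted p under 0.05) in each cell line under 4 scalings of the arrays. Falls exceed rises in all 8 pairs of bars, and the rises shrink to 2 and 0 without quantile normalization or loess.

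Many of the calls were shared by the cell lines. Of the 61, 12 fell in both lines (all rows, 5.39%) and 3 rose in both (all rows, 5.76%), and no member was called in opposite directions. SETD2, SETD1A, SETD1B, MLL, MLL3 and MLL4 of the writers, KDM3B and KDM5B of the erasers, and PHF2, PHF12, PHF13 and PHF15 of the PHF genes fell in both. SETDB2, JMJD4 and PHF23 rose in both. Calls for 7 of these 15 held in both lines under each of the 19 alternative settings: SETD2, SETD1A, MLL4, KDM5B, KDM3B, PHF13 and PHF15. A further setting that required a log2 difference of 0.5 was applied to the counts and is not among the 19. Without SKOV3 control replicate 2, the falls shared by both lines went from 12 to 7 and the shared rises from 3 to 0, and the SKOV3 falls from 13 to 7. As a description over genes that share arrays, the differences of the 61 members correlated between the lines at r = 0.91 (Pearson) and rho = 0.87 (Spearman), against 0.83 and 0.64 over all rows.

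**Figure D3:**
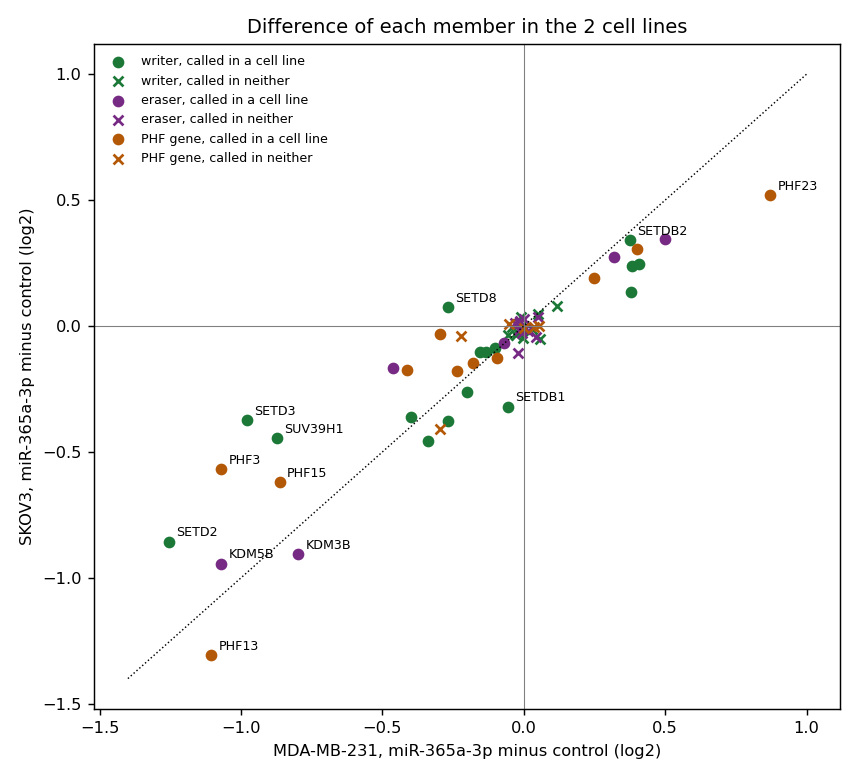
Difference of each of the 61 members (miR-365a-3p minus control, log2) in MDA-MB-231 against SKOV3, by class; filled circles were called in at least a single line, crosses in neither, and the dotted line marks equal differences. SETD2, KDM5B, KDM3B, PHF13 and PHF15 lie far down in both, PHF23 lies highest to the right, and SETD8 lies left of 0 and slightly above it.

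Among the writers, 11 of 27 fell and 4 rose in MDA-MB-231 (all rows, 11.7% and 14.4%). In SKOV3, 7 fell and 1 rose (all rows, 7.11% and 7.25%). The writers that rose, 14.8% and 3.70%, were near or below the shares of all rows. SETD2, which trimethylates H3K36, had the largest fall of any writer in both lines. Its MDA-MB-231 control arrays read 9.04, 8.87 and 8.89, and its miR-365a-3p arrays 7.71, 7.62 and 7.70. In SKOV3 the controls read 8.47 and 8.48 and the mimic arrays 7.58, 7.72 and 7.56. In each line all mimic arrays were well below all control arrays, and the groups did not overlap. The difference was −1.25 ± 0.06 (SE) in MDA-MB-231 (2.38-fold lower, adjusted p = 3.66e-06, limma) and −0.86 ± 0.06 in SKOV3 (1.81-fold, adjusted p = 7.04e-05, limma). A second row of the same gene under an older symbol, HYPB, stayed at 7.28 to 7.32 in all groups, at the floor, and was not called.

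Of 7 H3K4 writers (MLL, MLL2, MLL3, MLL4, SETD1A, SETD1B and SETD7), 5 fell in MDA-MB-231 and the same 5 fell in SKOV3 (all rows, 11.7% and 7.11%), all of them below the floor; roles were not tested against each other. SETD1A, the catalytic subunit of a SET1 complex, read 7.76, 7.75 and 7.85 in MDA-MB-231 controls and 7.53, 7.37 and 7.44 with the mimic. In SKOV3 it read 7.93 and 7.87 in controls and 7.48, 7.44 and 7.40 with the mimic. The groups did not overlap, with differences of −0.34 ± 0.04 (adjusted p = 0.000713, limma) and −0.46 ± 0.05 (adjusted p = 0.000609).

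MLL4 read 7.84, 7.80 and 7.98 in MDA-MB-231 controls against 7.52, 7.47 and 7.43 with the mimic, and in SKOV3 7.77 and 7.76 against 7.38, 7.38 and 7.45. It fell by 0.40 (adjusted p = 0.000343, limma) and 0.36 (adjusted p = 0.00197). MLL, the founding member of the family, read 7.41, 7.69 and 7.66 in MDA-MB-231 controls and 7.32, 7.29 and 7.34 with the mimic, so that control replicate 1 lay close to the mimic arrays. Its SKOV3 controls both read 7.71, above the 7.32 to 7.34 of the mimic arrays. MLL fell by 0.27 (adjusted p = 0.0112) and 0.38 (adjusted p = 0.00716), but the MDA-MB-231 call was lost with cyclic loess (adjusted p = 0.0568) and the SKOV3 call without either SKOV3 control array (adjusted p = 0.0566 and 0.0615). SETD1B fell by 0.20 and 0.26, and MLL3 by 0.13 and 0.10, from controls of 7.44 to 7.67; the SKOV3 calls of both were lost without SKOV3 control replicate 2 (adjusted p = 0.0573 and 0.215), and that of MLL3 also without SKOV3 control replicate 1 or SKOV3 mimic replicate 1 or 3. MLL2 lay at 7.28 to 7.39 on all arrays and was not called. MLL5, a family member whose catalytic activity is unsettled, fell in MDA-MB-231 by 0.10 (adjusted p = 0.0227) and differed by −0.09 in SKOV3 (adjusted p = 0.102). The MDA-MB-231 call was lost without mimic replicate 2 or 3 or control replicate 2 or 3 of that line (adjusted p up to 0.0853), and without its control replicate 1 the SKOV3 difference passed (adjusted p = 0.0255).

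Writers of H3K9 did not move one way. SETDB2 rose in both lines, from controls of 7.97 to 8.07 to 8.36, 8.38 and 8.41 in MDA-MB-231 and from 7.92 and 7.86 to 8.26, 8.37 and 8.07 in SKOV3. Its rises were 0.38 (adjusted p = 0.00296, limma) and 0.34 (adjusted p = 0.0153), and on the deposited values they were 0.00 and 0.06 and not called. The SKOV3 call was also lost without either SKOV3 control array (adjusted p = 0.0697 and 0.134). SUV39H1, the heterochromatin methyltransferase, fell in MDA-MB-231 from 9.12, 9.15 and 9.54 to 8.19, 8.51 and 8.49, by 0.87 ± 0.14 (adjusted p = 0.00208). In SKOV3 its arrays also did not overlap (9.26 and 9.17 against 8.72, 8.99 and 8.59), but the difference of −0.45 did not pass (adjusted p = 0.110; 0.0490 without SKOV3 mimic replicate 2). SETDB1 was the reverse case, with −0.06 in MDA-MB-231 (adjusted p = 0.561) and a fall of 0.32 in SKOV3, from 8.26 and 8.30 to 7.87, 7.99 and 8.01 (adjusted p = 0.00701). On the deposited values SETDB1 was called in both lines, with −0.36 and −0.62, and without SKOV3 control replicate 2 in neither (SKOV3, adjusted p = 0.0718). For neither gene did the difference between lines pass the test.

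SETD3, which is known to methylate actin, fell in MDA-MB-231 from 9.60, 9.13 and 9.30 to 8.09, 8.38 and 8.63, by 0.98 ± 0.21 (adjusted p = 0.00853, limma). In SKOV3 its mimic arrays spread from 7.95 to 8.71 and touched the controls of 8.82 and 8.71, and the difference of −0.37 did not pass (adjusted p = 0.428). SUV420H1, a writer of H4K20, differed by −0.01 in both lines, with 95% intervals of −0.13 to 0.11 in MDA-MB-231 and −0.14 to 0.13 in SKOV3. These values depended on the scaling: on the deposited values SUV420H1 fell in MDA-MB-231 (−0.31, adjusted p = 0.0113) and differed by −0.24 in SKOV3 (adjusted p = 0.0719). SETD5 differed by 0.06 and −0.05 and was not called, but on the deposited values it fell in both lines (−0.13 and −0.26, adjusted p = 0.0462 and 0.00454).

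**Figure D4:**
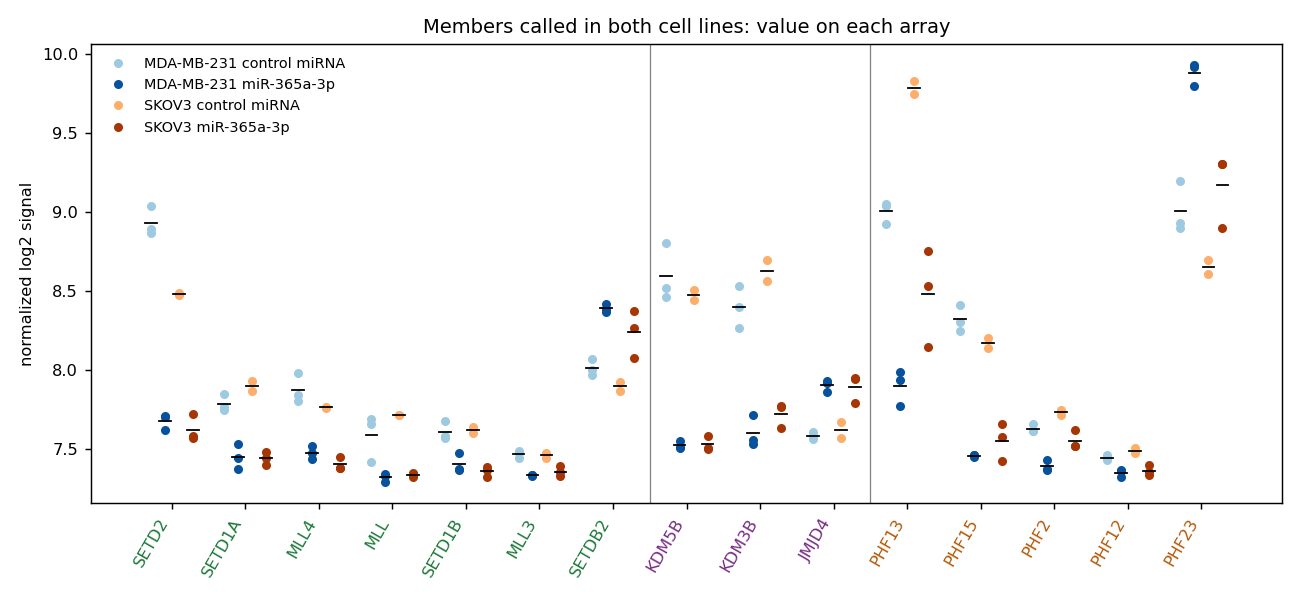
Normalized log2 signal of the 15 members called in both cell lines, with a point for each array and a bar for each group mean; writers, erasers and PHF genes are separated by vertical lines. The mimic arrays lie below the controls in 12 members and above them in SETDB2, JMJD4 and PHF23, with no overlap within a cell line.

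Erasers had the fewest calls, with 4 of 17 falling (23.5%) and 2 rising (11.8%) in MDA-MB-231 (all rows, 11.7% and 14.4%). In SKOV3, 2 fell (11.8%) and 1 rose (5.88%), against 7.11% and 7.25% of all rows. All but the MDA-MB-231 falls were thus near the shares of all rows, and only 4 of the 17 lay above the floor. KDM5B, which removes methyl groups from H3K4, read 8.80, 8.51 and 8.46 in MDA-MB-231 controls and 7.51, 7.50 and 7.55 with the mimic. Its SKOV3 controls read 8.44 and 8.50 and its mimic arrays 7.50, 7.58 and 7.51. With the mimic it thus sat near the floor in both lines, and the differences were −1.07 ± 0.08 (2.10-fold lower, adjusted p = 3.64e-05, limma) and −0.94 ± 0.09 (1.92-fold, adjusted p = 0.000238).

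The erasers of H3K9 named JMJD1A, JMJD1C and KDM3B are close relatives and went different ways in MDA-MB-231. KDM3B fell there from 8.39, 8.26 and 8.53 to 7.55, 7.71 and 7.53, and in SKOV3 from 8.56 and 8.69 to 7.63, 7.77 and 7.76. The differences were −0.80 ± 0.08 (adjusted p = 0.000157, limma) and −0.91 ± 0.09 (adjusted p = 0.000308). JMJD1C fell in MDA-MB-231 from 8.84, 8.52 and 8.67 to 8.28, 8.14 and 8.22, by 0.46 (adjusted p = 0.00714), and differed by −0.17 with overlapping arrays in SKOV3 (adjusted p = 0.451); on the deposited values it was called in SKOV3 too, at −0.47 (adjusted p = 0.0202). JMJD1A rose in MDA-MB-231 by 0.50 (adjusted p = 0.0407), from 8.85, 8.22 and 8.24 to 8.92, 8.88 and 9.03, so that control replicate 1 nearly reached the mimic arrays. That rise was not called on the deposited values (0.16, adjusted p = 0.501) nor without 9 of the 11 arrays left out singly (all but MDA-MB-231 control replicate 1 and SKOV3 mimic replicate 2; adjusted p up to 0.143). The SKOV3 value was 0.35 (adjusted p = 0.270), and it passed without MDA-MB-231 control replicate 1 (adjusted p = 0.0173).

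JMJD4, a hydroxylase of a translation termination factor, rose from 7.56, 7.57 and 7.61 to 7.86, 7.92 and 7.93 in MDA-MB-231 and from 7.67 and 7.56 to 7.94, 7.79 and 7.94 in SKOV3. The rises of 0.32 (adjusted p = 0.00116, limma) and 0.27 (adjusted p = 0.00873) were 0.06 and 0.05 on the deposited values and not called there, and the SKOV3 call was lost without SKOV3 control replicate 2 (adjusted p = 0.103). JMJD8 and JMJD6 were called in neither line. JMJD8 differed by 0.00 in MDA-MB-231 (95% interval −0.40 to 0.41) and −0.01 in SKOV3 (−0.47 to 0.45), intervals that leave room for a sizeable change. The KDM2B and KDM5A rows stayed near the floor. Rows that carry older symbols of the same genes, outside the symbol rule, had called falls: FBXL10 (KDM2B) fell in MDA-MB-231 from 8.91 to 8.04 (−0.88, adjusted p = 0.00541) with −0.66 in SKOV3 (adjusted p = 0.0555), and JARID1A (KDM5A) fell by 0.68 in MDA-MB-231 (adjusted p = 0.00179) with −0.38 in SKOV3 (adjusted p = 0.0756). In SKOV3 both fell on the deposited values (FBXL10, −0.84, adjusted p = 0.0396; JARID1A, −0.63, adjusted p = 0.00434), and JARID1A also with cyclic loess (adjusted p = 0.0312).

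PHF genes fell in 8 of 17 cases and rose in 3 in MDA-MB-231, and fell in 4 and rose in 1 in SKOV3. The share that fell in MDA-MB-231 was 47.1%, against 40.7% of writers, 23.5% of erasers and 11.7% of all rows. In SKOV3 it was 23.5%, against 25.9% of writers, 11.8% of erasers and 7.11% of all rows. Above the floor in MDA-MB-231, 3 of 6 PHF genes, 4 of 5 writers and 2 of 4 erasers fell (all rows above it, 26.2%). In SKOV3, 1 of 6, 1 of 5 and 1 of 4 fell (all rows above it, 15.3%). The floor is set on the mean over all arrays, so KDM5B and PHF15, with control means above 8, are left out of these counts. The shares of PHF genes that rose, 17.6% and 5.88%, were near the 14.4% and 7.25% of all rows. The differences between classes were not tested. PHF13, a chromatin protein that reads methylated H3K4, had the largest fall of any member in SKOV3. Its controls read 8.92, 9.04 and 9.05 in MDA-MB-231 and 9.83 and 9.74 in SKOV3. With the mimic it read 7.77, 7.99 and 7.93, and 8.15, 8.75 and 8.53. The 2 differences were −1.11 ± 0.13 (2.15-fold lower, adjusted p = 0.000452, limma) and −1.31 ± 0.15 (2.48-fold, adjusted p = 0.000722).

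PHF15, now JADE2, a scaffold of a histone acetyltransferase complex, fell from 8.41, 8.24 and 8.30 to 7.46, 7.44 and 7.46 in MDA-MB-231 and from 8.14 and 8.20 to 7.42, 7.66 and 7.57 in SKOV3. With the mimic it too came close to the floor. Its differences were −0.86 ± 0.06 (adjusted p = 3.13e-05, limma) and −0.62 ± 0.07 (adjusted p = 0.000606). PHF2, an H3K9 eraser with a PHD finger, fell by 0.24 and 0.18 (adjusted p = 0.000914 and 0.0125), and PHF12, a subunit of a Sin3 corepressor complex, by 0.10 and 0.13 (adjusted p = 0.0143 and 0.0126). Both lay below the floor, with controls of 7.43 to 7.75, and both lost the SKOV3 call without SKOV3 control replicate 1 (adjusted p = 0.0541 and 0.0521) or 2 (0.121 and 0.139); PHF12 also lost the MDA-MB-231 call without MDA-MB-231 control replicate 2 (adjusted p = 0.0539).

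PHF23, another reader of methylated H3K4, had the largest rise of any member in both lines. It went from 8.93, 9.19 and 8.90 to 9.93, 9.79 and 9.91 in MDA-MB-231 and from 8.70 and 8.60 to 9.30, 9.30 and 8.90 in SKOV3. The MDA-MB-231 rise of 0.87 ± 0.12 (1.83-fold, adjusted p = 0.000795, limma) held under all 19 alternatives, at 0.66 or more. In SKOV3 the rise of 0.52 ± 0.13 (adjusted p = 0.0311) was lost under 9 of the 19, with 0.29 on the deposited values (adjusted p = 0.182) and an adjusted p of 0.210 without SKOV3 control replicate 2, 0.115 without SKOV3 control replicate 1, and 0.0847 and 0.0717 without SKOV3 mimic replicates 1 and 2.

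PHF3, which binds RNA polymerase II, fell in MDA-MB-231 from 9.66, 9.09 and 9.13 to 8.01, 8.24 and 8.42, by 1.07 ± 0.22 (adjusted p = 0.00651, limma). Its SKOV3 arrays did not overlap either (9.33 and 9.36 against 8.32, 9.10 and 8.90), but the difference of −0.57 did not pass (adjusted p = 0.192). PHF19, a Polycomb-like partner of the H3K27 methyltransferase complex, fell in MDA-MB-231 by 0.41 (adjusted p = 0.00564) and differed by −0.17 in SKOV3 (adjusted p = 0.308); on the deposited values it was called there too, at −0.48 (adjusted p = 0.0166). PHF11 rose in MDA-MB-231 by 0.40 (adjusted p = 0.0191), and by 0.03 on the deposited values, where it was not called; its MDA-MB-231 call was also lost without mimic replicate 1 or 2 or control replicate 1 or 3 of that line (adjusted p up to 0.0693). The SKOV3 value was 0.30 (adjusted p = 0.132). PHF10, a subunit of a SWI/SNF chromatin remodelling complex, and PHF16 were called in neither line. Without MDA-MB-231 control replicate 1, PHF10 passed in both (adjusted p = 0.0156 and 0.0270), as it did on the deposited values (−0.60 and −0.71, adjusted p = 0.0180 and 0.0186). PHF16 passed in MDA-MB-231 where that line was fitted alone (−0.22, adjusted p = 0.0381).

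The test of the response between the cell lines was passed by 2 of the 61 members, SETD2 and SETD8, near the 2.54% of all rows. For SETD2 the SKOV3 response minus the MDA-MB-231 response was 0.40 (95% interval 0.21 to 0.59, adjusted p = 0.0457, limma). The SETD2 controls differed by −0.45 between the lines and the mimic arrays of both ended at 7.56 to 7.72, below the floor of 8, so that an unequal response and an unequal starting level cannot be told apart. SETD8, which monomethylates H4K20, fell in MDA-MB-231 from 8.44, 8.52 and 8.63 to 8.27, 8.25 and 8.27 (by 0.27, adjusted p = 0.00228). In SKOV3 it read 8.31 and 8.27 in controls and 8.41, 8.34 and 8.34 with the mimic, a difference of 0.08 (adjusted p = 0.455) that turned to −0.24 on the deposited values. The difference of responses was 0.34 (95% interval 0.19 to 0.50, adjusted p = 0.0349). Over the alternatives the adjusted p ranged from 0.0189 to 0.176 for SETD2 and from 0.0125 to 0.287 for SETD8, and neither passed without SKOV3 control replicate 1 or 2.

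Between the cell lines, 12 members differed on the arrays of cells that received the control miRNA. Of the 61, 6 were higher in SKOV3 and 6 were lower, near the shares of all rows (8.34% and 7.76%). On the deposited values the counts were 15 higher and 3 lower, and without SKOV3 control replicate 1 they were 2 and 3. JMJD8, a JmjC-family protein of the endoplasmic reticulum, read 11.32 and 11.04 in SKOV3 controls and 10.05, 9.85 and 10.09 in MDA-MB-231 controls, a difference of 1.18 ± 0.20 (2.26-fold, adjusted p = 0.00364, limma). PHF13 was higher in SKOV3 by 0.78 (adjusted p = 0.00656), PHF11 by 0.56 (adjusted p = 0.00973), PHF16 by 0.54, PHF10 by 0.48 and SETDB1 by 0.37 (adjusted p = 0.00226). PHF19 was lower in SKOV3 by 0.70 (log2 difference −0.70, adjusted p = 0.000855), with controls of 8.17 and 8.04 against 8.68, 8.97 and 8.78. The log2 difference was −0.45 for SETD2 (adjusted p = 0.00107), −0.43 for PHF14, −0.38 for JMJD1C, −0.36 for PHF20 and −0.24 for SETD8. Of the 12, 7 were PHF genes, 3 were writers and 2 were erasers (JMJD8 and JMJD1C), from classes of 17, 27 and 17. The classes were not tested against each other or against all rows. No KDM or MLL row was among the 12, but by the mean over all arrays those rows other than KDM3B lay below the floor. KDM5B did so although its control means were 8.59 in MDA-MB-231 and 8.47 in SKOV3. Its control difference was −0.12 (adjusted p = 0.521, limma). KDM3B was called on the deposited values (0.33, adjusted p = 0.0261, limma). The calls of JMJD1C, PHF10 and PHF16 were each lost without most of the 11 arrays, those of PHF11 and PHF13 without SKOV3 control replicate 1 (adjusted p = 0.0929 and 0.0608), and that of SETD8 without SKOV3 control replicate 2 (adjusted p = 0.0914). On the deposited values JMJD1C, PHF20 and SETD8 were not called (SETD8, −0.12, adjusted p = 0.404).

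**Figure D5:**
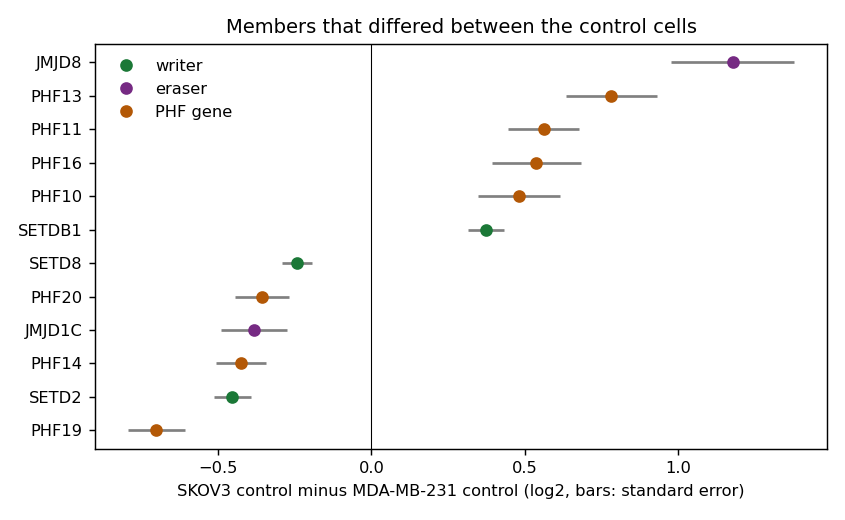
Difference between SKOV3 control and MDA-MB-231 control arrays (log2, with its standard error) for the 12 members called in that comparison, coloured by class. JMJD8 lies at 1.18, PHF13 at 0.78 and PHF19 at −0.70.

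Genes that work with these enzymes but carry other symbols were taken from fixed lists. Of 10 core subunits of the MLL and SET1 complexes, 6 fell and 1 rose in MDA-MB-231 (all rows, 11.7% and 14.4%). In SKOV3, 4 fell and 0 rose (all rows, 7.11% and 7.25%). The median difference was −0.28 and −0.24, against 0.01 for all rows. Of the 10, 7 were above the floor, where 26.2% and 15.3% of rows fell. HCFC1, a scaffold of these complexes that ended at 7.43 and 7.49 with the mimic, fell by 2.22 in MDA-MB-231 (adjusted p = 0.000164, limma) and fell by 3.24 in SKOV3 (adjusted p = 8.86e-05). NCOA6, another subunit of MLL complexes, also fell in both, with log2 differences of −1.31 and −1.59. CXXC1 and MEN1 also fell in both lines. DPY30 rose in MDA-MB-231 by 0.80 (adjusted p = 0.00764), while WDR5 and ASH2L were called in neither line. On the deposited values WDR5 fell in MDA-MB-231 (−0.20, adjusted p = 0.0131).

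Of 16 other SET-domain writers, 5 fell and 2 rose in MDA-MB-231 (all rows, 11.7% and 14.4%). In SKOV3, 1 fell and 1 rose (all rows, 7.11% and 7.25%). The MDA-MB-231 rises and both SKOV3 counts were near the shares of all rows. SMYD2 rose in both lines (0.79 and 0.74), under the deposited scaling too, PRDM10 fell in both (by 0.30 and 0.25), and EZH2, the H3K27 methyltransferase, was called in neither (−0.12 and 0.12) but fell in MDA-MB-231 on the deposited values (−0.47, adjusted p = 0.0129), where its SKOV3 value turned to −0.18. Of 12 further JmjC genes and LSD1 partners outside the symbol rule, 5 fell and 2 rose in MDA-MB-231 (all rows, 11.7% and 14.4%). In SKOV3, 4 fell and 2 rose (all rows, 7.11% and 7.25%). The MDA-MB-231 rises were near the share of all rows. AOF2, the H3K4 demethylase now called KDM1A, fell by 0.63 and 0.74, and FBXL11, now KDM2A, fell by 0.68 and 0.58. MINA rose by 0.67 and 0.53 and did so on the deposited values too, whereas the rise of HIF1AN (0.32 and 0.33) was not called there.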

How the data were processed

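Gene expression was measured on Illumina HumanHT-12 v4 bead arrays in 4 groups. The deposited table held 1 log2 value per symbol and array, which the authors had quantile normalized with lumi; how probes were merged and which log or variance-stabilizing transform was applied is not given in the sources used here. The deposited columns did not share 1 distribution, so they were quantile normalized again. Differences were fitted with limma 3.58.1 in R 4.3.3 as 4 group means with empirical Bayes moderation over 31325 rows, with Benjamini-Hochberg adjustment and a threshold of 0.05, after the code was tested on simulated data. Nothing in the labels ties replicates to separate cultures, so p-values measure the spread between these arrays, and the number of arrays limits precision. The labels' replicate numbers were tested as a pairing (correlations −0.12, 0.04 and 0.23 in MDA-MB-231, 0.04 and −0.07 in SKOV3) and were not used as a block. Members and lists were chosen with earlier results of these data known. Named members were those called in both lines, those whose response differed between lines, the 3 per class with the largest difference among members above the floor called in 1 line, the 3 per class differing most between control cells, the 2 per class with the highest mean called in neither line, and MLL2, MLL5 and PHF15; PHF14 and PHF20 and the genes of the lists were named outside this rule to complete a count. A planned comparison with protein length was not run. Other settings were deposited or median-centred values, cyclic loess, rows above the median, trended robust moderation, the replicate block, stricter thresholds, each line alone and leaving out each array.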

Additional observations from a re-analysis of the deposited data

Results flagged for a closer look

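Both members below were singled out because the miR-365a-3p response differed between the cell lines by a test of the difference itself (limma). That 2 of the 61 members passed is near the 2.54% of all rows. For SETD2 the SKOV3 response minus the MDA-MB-231 response was 0.40 (adjusted p = 0.0457), the fall being smaller in SKOV3. In both lines SETD2 fell to mimic arrays below the floor, where an unequal response and an unequal starting level cannot be told apart. For SETD8 the same difference was 0.34 (adjusted p = 0.0349), with a fall in MDA-MB-231 and no call in SKOV3. Both differences kept their sign under the alternatives run, and both calls were lost with trended robust moderation (adjusted p = 0.151 and 0.287).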

How the results depend on the processing

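On the deposited values, members that rose went from 9 to 2 in MDA-MB-231, from 3 to 0 in SKOV3 and from 3 to 0 in both lines. Falls went from 13 to 24 in SKOV3 and from 12 to 23 in both, control differences to 15 higher and 3 lower in SKOV3, and differing responses to 1. With median centring the rises were 2, 0 and 0, the falls 23 in SKOV3 and 20 in both, the control differences 14 and 3, and the differing responses 1, which was also the count with cyclic loess. Requiring a log2 difference of 0.5 or more left 8 falls and 2 rises in MDA-MB-231, 5 and 1 in SKOV3, 5 and 1 in both, 0 differing responses and 1 member lower in SKOV3 controls. At an adjusted p under 0.01, 5 members rose in MDA-MB-231, 1 in SKOV3 and 1 in both, and 0 responses differed. Each line fitted alone gave 0 rises in SKOV3 and 0 in both. Trended robust moderation gave 0 differing responses. The replicate block, for numbers that did not pair the arrays, gave 8 falls in SKOV3, 7 in both and 0 differing responses, and the calls it ended included that of SETD3 in MDA-MB-231 (adjusted p = 0.0549). SETD5 in MDA-MB-231 turned from 0.06 to −0.13 on the deposited values (adjusted p = 0.0462). The cause of these changes was not tested.

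Leaving out each array in turn gave 19 to 23 falls and 5 to 9 rises in MDA-MB-231, 7 to 15 and 0 to 4 in SKOV3, 7 to 14 and 0 to 4 in both lines, 0 to 2 differing responses, and 2 to 7 members higher and 2 to 6 lower in SKOV3 controls. Without SKOV3 control replicate 2 there were 7 falls and 0 rises in SKOV3, 7 and 0 in both, and 2 members lower in SKOV3 controls. Without SKOV3 control replicate 1 there was 1 rise in SKOV3 and in both, with 2 members higher and 3 lower in SKOV3 controls. In these fits the lone control array is assumed to vary like the other groups. Without MDA-MB-231 miR-365a-3p replicate 2 or MDA-MB-231 control replicate 3, 5 members rose in MDA-MB-231. No response differed without any of 7 arrays, and 1 did without each MDA-MB-231 control array.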
